A study of Homo sapiens with 6 samples.

Results

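Chemokines are small secreted proteins that draw leukocytes and other cells along a gradient, and they act through G protein-coupled receptors on the responding cell. They are grouped by the spacing of their first cysteines into CXC, CC, C and CX3C ligands, and the receptors are named after the ligands they bind. Atypical receptors bind chemokines without the usual G protein signal and mostly take them up. In prostate carcinoma the best known members are CXCL8, which tumour cells secrete and which attracts neutrophils and promotes vessel growth, and the pair of CXCL12 and its receptor CXCR4, which has been linked to homing to bone. The genes were chosen by symbol, as CXCL, CCL, XCL or CX3CL and a number, or as CXCR, CCR, XCR, CX3CR or ACKR and a number, among probesets with a single gene symbol. This gave 58 of the 18404 genes measured: 6 CXC ligands of the neutrophil-attracting kind, 3 interferon-inducible and 5 other CXC ligands, 20 CC ligands, 3 C or CX3C ligands, 6 CXC receptors, 8 CC receptors, 2 C or CX3C receptors and 5 atypical receptors.

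The 6 microarrays measured RNA from PC-3, an established androgen-independent human prostate carcinoma line, grown in DMEM with 10% fetal bovine serum. The menthol group (3 arrays) received menthol dissolved in ethanol, and the vehicle group (3 arrays) received ethanol alone, at 0.1% in both. The sources used here state neither the menthol dose nor the treatment time. They do not say whether replicates were separate cultures, so the p-values reflect the variation among these arrays alone, and that may be technical. The question was how menthol, a cooling compound and agonist of the channel TRPM8, changes gene expression in these cells. Values are log2 intensity, a relative brightness, and each difference is the menthol mean minus the vehicle mean, in log2 units, with the standard error (SE) of limma. "Passed" means an adjusted p under 0.05 over all 18404 genes.

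KRT8, an epithelial keratin, was bright, at 11.71 ± 0.01 in menthol and 11.16 ± 0.06 in vehicle (SD, n = 3 each). Of 9 measured epithelial and prostate markers, 6 rose, all of them epithelial, and VIM, a mesenchymal filament, fell. KLK3, the androgen-driven gene of PSA, was at 5.26 in menthol and 5.24 in vehicle. The leukocyte antigen PTPRC was at 2.69 in menthol and 2.60 in vehicle. Of 20 leukocyte and endothelial markers 2 rose, PECAM1 by 0.60 and NCR1 by 0.23, and 0 fell; the NCR1 call ended under 9 of 15 alternatives, among them without menthol replicate 1 or 2 or vehicle replicate 1. With its probesets averaged PECAM1 rose by 0.32 (adjusted p = 0.0225). Summed over those 20 genes, log2 intensity was 83.44 to 85.47 in the menthol arrays and 81.48 to 82.87 in the vehicle arrays, and 15 of the 20 lay no higher than the level used below for dim genes. The part of other cell types in the results below was not tested. In RNA from a whole culture, fewer cells making a transcript and less transcript per cell cannot be told apart.

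With menthol 9 chemokine family genes fell and 2 rose, 19.0% of the 58 against 29.1% of all genes. All 6 CXC ligands among the 58 with the glutamate-leucine-arginine motif were among those that fell, by 0.46 to 0.92 on the log2 scale. These were the neutrophil attractants CXCL1, CXCL2, CXCL3, CXCL5, CXCL6 and CXCL8. PPBP, a measured ligand with this motif that its symbol left outside the 58, rose by 1.32. The other members that fell were CXCL12, its receptor CXCR4, and CCL20, a CC ligand. The 2 members that rose, CXCL10 and CCL22, changed by under 1.5-fold and lost their call under several alternatives. The 9 genes were 15.5% of the 58, against 14.5% of all genes, and the 2 were 3.45%, against 14.6% of all genes, so the share that fell was near that of all genes. At a change of at least 1.5-fold, 7 of the 58 fell, against 2.62% of all genes, and 0 rose, against 2.99%. The median change of the 58 was 0.03, the same as that of all genes.

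The genes that fell were bright members. Probes differ in brightness, so a low signal is not proof of absence. As a guide to the dim end of these arrays, 360 olfactory receptor genes, which few tissues outside the nose express, had a median signal of 3.41 and a 95th percentile of 4.95. Of the 58 genes, 20 lay above that percentile. These held all 9 that fell (45%, against 19.3% of all genes above it) and 1 of the 2 that rose (16.2% of all genes above it). Of the 38 at or under it 1 rose (2.63%), against 10.3% of all genes there. Of the 8 members brighter than the median gene (6.47) 7 fell, against 23.6% of all such genes, and 0 rose, against 17.3%; the remaining member was CXCL16. Of the 50 members dimmer than the median gene, 2 fell, against 5.46% of such genes, and 2 rose, against 11.8%.

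**Figure D1:**
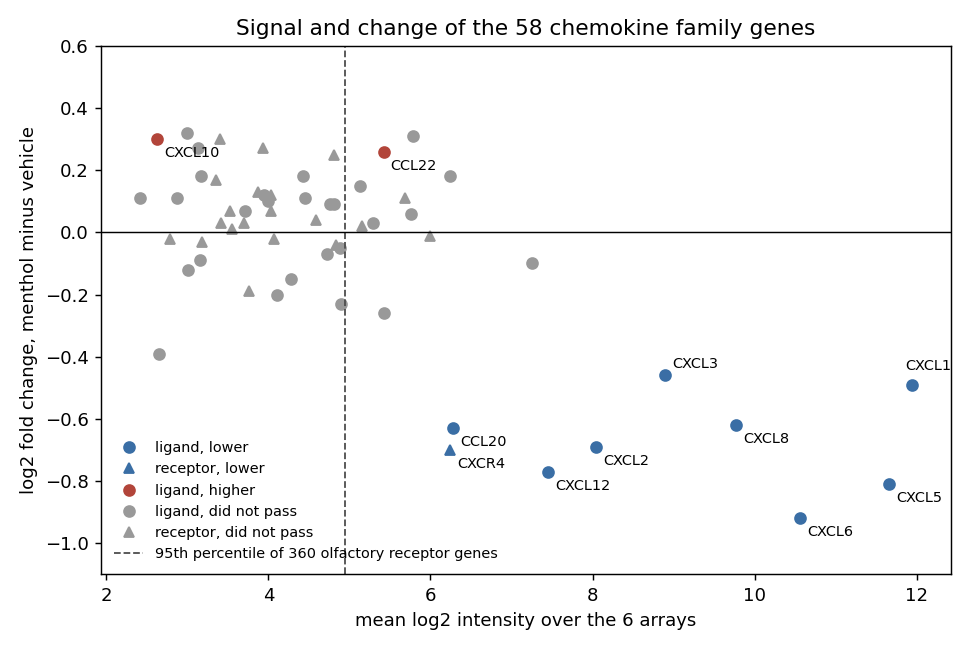
Mean log2 intensity over the 6 arrays (x axis) against the log2 fold change, menthol minus vehicle (y axis), for the 58 genes, with circles for ligands and triangles for receptors. The 9 genes that fell lie to the right of the dashed line, the 95th percentile of olfactory receptor genes (4.95), while most members that did not pass lie to its left.

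CXCL6, a neutrophil attractant that signals through CXCR1 and CXCR2, read 10.13, 10.01 and 10.14 in the menthol arrays and 11.01, 10.97 and 11.06 in the vehicle arrays. Every menthol array was lower than every vehicle array, with a gap far wider than the range within either group. It fell by 0.92 ± 0.07 (SE, n = 3 per group), or 1.89-fold, with a 95% interval of -1.07 to -0.77 (limma adjusted p = 0.000106). CXCL5, its closest relative and a ligand of CXCR2, read 11.31, 11.20 and 11.25 with menthol and 12.01, 12.05 and 12.13 with vehicle. The groups did not overlap, and CXCL5 fell by 0.81 ± 0.06, or 1.75-fold (adjusted p = 0.000174).

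CXCL8, or interleukin-8, the most studied of these attractants, had 9.50, 9.40 and 9.49 with menthol and 10.01, 10.02 and 10.20 with vehicle. It fell by 0.62 ± 0.07, or 1.53-fold (adjusted p = 0.000935), again with no overlap. CXCL2, a ligand of CXCR2 also known as GRO-beta, had 7.75, 7.55 and 7.80 with menthol and 8.33, 8.30 and 8.53 with vehicle. Its fall was 0.69 ± 0.09, or 1.61-fold (adjusted p = 0.00149), and the lowest vehicle array stood well above the highest menthol array.

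CXCL1, or GRO-alpha, a melanoma growth-stimulating factor and neutrophil attractant, had 11.70, 11.74 and 11.65 with menthol and 12.14, 12.18 and 12.24 with vehicle. It fell by 0.49 ± 0.06, or 1.41-fold (adjusted p = 0.00115). CXCL3, or GRO-gamma, had 8.84, 8.58 and 8.58 with menthol and 9.16, 9.12 and 9.10 with vehicle, and fell by 0.46 ± 0.08, or 1.38-fold (adjusted p = 0.00586). For both genes the groups did not overlap, although menthol replicate 1 of CXCL3 stood nearer the vehicle arrays than the other two. The 95% interval of CXCL6, -1.07 to -0.77, did not meet those of CXCL1, -0.63 to -0.35, and CXCL3, -0.66 to -0.26, while that of CXCL2, -0.90 to -0.47, overlapped them all. CXCL1, CXCL2 and CXCL3 are close relatives, as are CXCL5 and CXCL6. Their transcripts were not compared and the probe sequences were not used here, so how far their probesets share signal is uncertain.

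**Figure D2:**
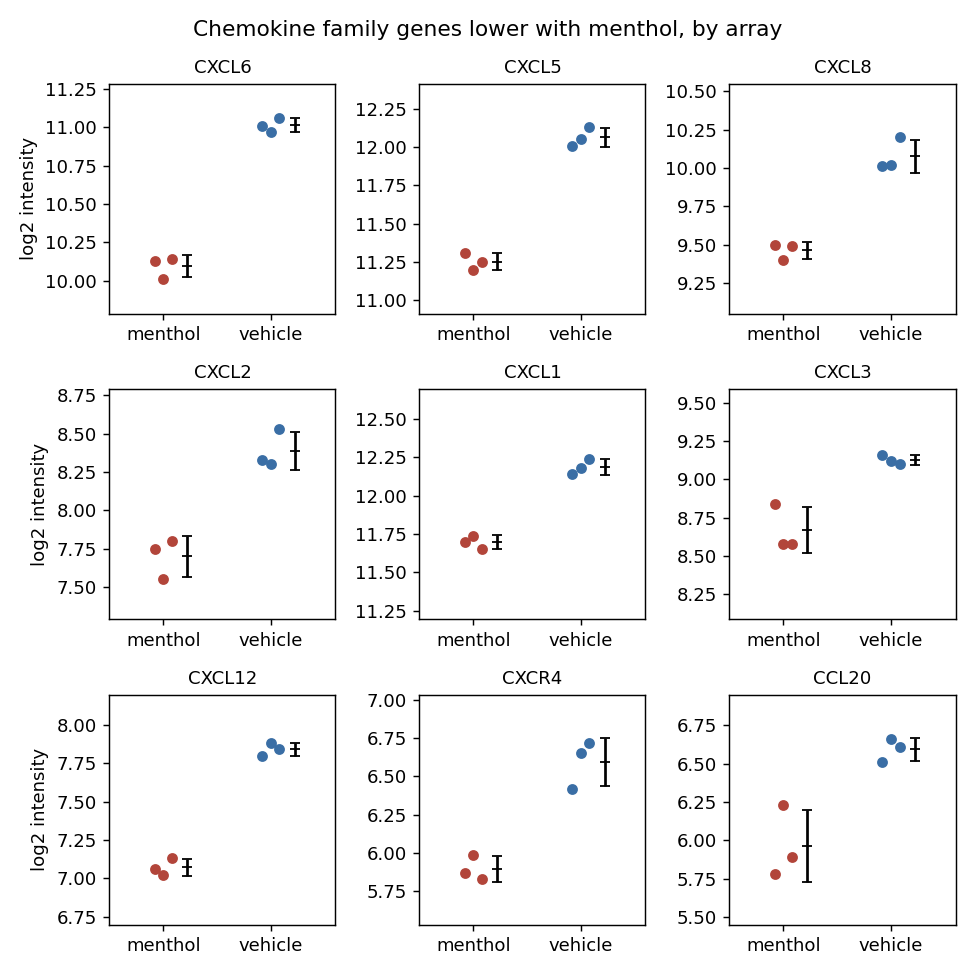
Log2 intensity (y axis, 1.5 log2 units in every panel, not starting at 0) of the 9 members that fell, with a point per array, menthol on the left and vehicle on the right, and the mean ± SD beside the points. In all 9 panels the 3 menthol points lie below the 3 vehicle points, with CXCL6 furthest apart and CCL20 most spread within menthol.

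The 6 genes sit together on chromosome 4 in the order CXCL8, CXCL6, PF4V1, CXCL1, PF4, PPBP, CXCL5, CXCL3, CXCL2 (RefSeq gene order, GRCh38.p14). All 9 genes of this cluster were measured. PPBP lies in the middle and encodes the platelet precursor of CXCL7, which carries the same glutamate-leucine-arginine motif in its mature form and also binds CXCR2. Its symbol kept it outside the family as chosen here. PPBP moved the other way: it read 6.27, 6.41 and 6.58 with menthol and 5.04, 4.92 and 5.35 with vehicle. Every menthol array exceeded every vehicle array, and the gene rose by 1.32 ± 0.13, or 2.49-fold (adjusted p = 0.000336). It did so under all 15 alternatives in which it was tested, by 1.23 to 1.44.

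The platelet factor genes of the cluster did not pass. PF4 was at 5.63 ± 0.10 with menthol and 5.41 ± 0.17 with vehicle (SD, n = 3 each; adjusted p = 0.131). Its variant PF4V1 was at 5.13 ± 0.11 with menthol and 4.99 ± 0.10 with vehicle (adjusted p = 0.231). Of the cluster's 9 genes, 6 thus fell, 1 rose and 2 did not pass. Of the 5 nearest measured protein-coding genes before CXCL8, 1 rose and 1 fell, and of the 5 after CXCL2, 3 rose and 0 fell, where 14.6% of all genes rose and 14.5% fell. Further along the same chromosome lie the interferon-inducible ligands CXCL9, CXCL10 and CXCL11, none of which fell.

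**Figure D3:**
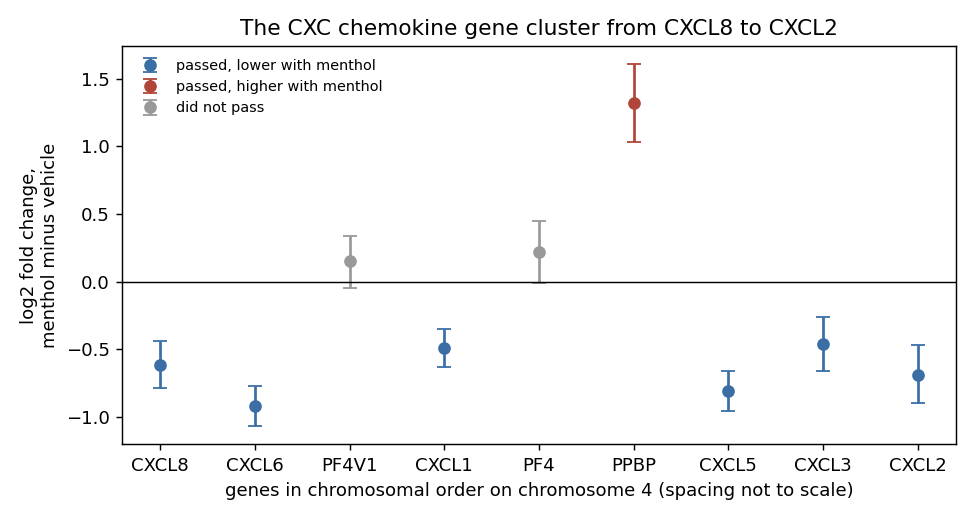
Log2 fold change, menthol minus vehicle, with its 95% interval (y axis) for the 9 genes from CXCL8 to CXCL2 in chromosomal order (x axis, spacing not to scale). The 6 ligands that fell lie between -0.92 and -0.46, PPBP stands alone at 1.32, and the intervals of PF4V1 and PF4 include 0.

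The promoters of these genes are shown because 6 neighbours moved together and PPBP did not. Those of PF4 and PF4V1 are not shown. Each is read on the gene's own strand, from 120 bases before the RefSeq transcript start through the first 20 transcribed bases (GRCh38.p14). The positions are chr4:73836558-73836697, plus strand, for CXCL6; chr4:73998658-73998797, minus strand, for CXCL5; chr4:73740449-73740588, plus strand, for CXCL8. They are chr4:74099176-74099315, minus strand, for CXCL2; chr4:73869273-73869412, plus strand, for CXCL1; chr4:74038670-74038809, minus strand, for CXCL3; and chr4:73988171-73988310, minus strand, for PPBP. Capitals mark GGAATTTCC, a form of the site known to bind NF-kappaB, the factor that drives these genes in inflammation:
CXCL6: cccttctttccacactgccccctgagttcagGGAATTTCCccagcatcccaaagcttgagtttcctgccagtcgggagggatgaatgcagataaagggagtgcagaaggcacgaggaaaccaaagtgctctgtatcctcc
CXCL5: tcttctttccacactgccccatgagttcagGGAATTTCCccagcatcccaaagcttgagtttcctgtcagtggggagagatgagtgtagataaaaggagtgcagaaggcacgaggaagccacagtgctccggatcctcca
CXCL8: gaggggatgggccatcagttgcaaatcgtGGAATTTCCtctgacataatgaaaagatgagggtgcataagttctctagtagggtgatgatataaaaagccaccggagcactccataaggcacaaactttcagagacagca
CXCL2: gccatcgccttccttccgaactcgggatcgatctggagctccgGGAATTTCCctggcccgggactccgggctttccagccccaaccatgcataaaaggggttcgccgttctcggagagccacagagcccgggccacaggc
CXCL1: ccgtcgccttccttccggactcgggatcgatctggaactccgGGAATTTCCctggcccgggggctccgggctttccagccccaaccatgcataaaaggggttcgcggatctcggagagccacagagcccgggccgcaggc
CXCL3: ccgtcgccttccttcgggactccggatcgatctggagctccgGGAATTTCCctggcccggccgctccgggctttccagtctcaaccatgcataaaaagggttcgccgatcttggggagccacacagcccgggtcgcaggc
PPBP: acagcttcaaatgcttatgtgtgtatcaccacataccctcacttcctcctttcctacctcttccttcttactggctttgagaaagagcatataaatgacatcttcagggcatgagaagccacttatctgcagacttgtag

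GGAATTTCC was found in all 6 promoters of the ligands that fell and not in the PPBP window. PPBP is the only cluster gene that did not fall whose promoter is shown. The first base of the match lay 89 bases before the start in CXCL6, 90 in CXCL5, 91 in CXCL8, 77 in CXCL2 and 78 in both CXCL1 and CXCL3. Searched on both strands over 300 bases (250 before the start and 50 after), it occurred in 162 of 35116 promoter windows, or 0.461%. The motif was chosen after the values and the promoters had been seen. Of the 58 genes 41 had a promoter in the table, and 8 of them held the motif: the same 6 together with CXCL10 and CXCL11, which did not fall. CXCL12, CXCR4 and CCL20, the other members that fell, were not among the 8. For GGAATTTCC, 75 measured genes apart from the 6 ligands held it, of which 15 fell (20%) and 11 rose. Of all measured genes with a promoter window 14.9% fell. A match is a description of the letters and not evidence of binding.

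The promoters also showed how the genes are related. In global alignments of the 300-base windows CXCL6 and CXCL5 were 83.1% identical and CXCL1 and CXCL3 82.5%. CXCL2 was 71.9% identical to CXCL1 and 73.8% to CXCL3, and CXCL8 was 45.2% to 48.0% identical to the other 5. PPBP was 47.0% to 51.7% identical to the 6. Whether likeness goes with the size of the fall was not tested. The most alike pair had the largest falls of the 6, 0.92 for CXCL6 and 0.81 for CXCL5. The next pair, CXCL1 and CXCL3, had the smallest, 0.49 and 0.46, and CXCL8, the least alike, fell by 0.62. The uncertainty over shared probeset signal applies here too.

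The receptors of these ligands were dim. CXCR1, which binds CXCL6 and CXCL8, was at 3.16 ± 0.09 with menthol and 3.19 ± 0.02 with vehicle (SD, n = 3 each), under the olfactory receptor median, and did not pass (adjusted p = 0.771). CXCR2, the shared receptor of the whole set, read 3.27, 2.56 and 2.52 with menthol and 2.74, 2.83 and 2.85 with vehicle, and did not pass (adjusted p = 0.948). The first menthol array stood apart: without it CXCR2 changed by -0.26 (adjusted p = 0.0329), and its alternatives gave adjusted p-values between 0.0329 and 0.996. ACKR1, an atypical receptor that binds many inflammatory chemokines, was at 4.61 ± 0.03 with menthol and 4.56 ± 0.11 with vehicle (adjusted p = 0.695).

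CXCL12, the homeostatic ligand that holds stem cells and leukocytes in bone marrow, read 7.06, 7.02 and 7.13 with menthol and 7.80, 7.88 and 7.84 with vehicle. It fell by 0.77 ± 0.06, or 1.71-fold (adjusted p = 0.000175), and replicates of each group lay within 0.11 of each other. CXCR4, its signalling receptor, read 5.87, 5.99 and 5.83 with menthol and 6.42, 6.65 and 6.72 with vehicle. It fell by 0.70 ± 0.09, or 1.63-fold (adjusted p = 0.00138), with no overlap, so ligand and receptor were both lower in the menthol arrays. ACKR3, the atypical receptor that takes up CXCL12, did not pass, at 4.07 ± 0.19 with menthol and 4.0 ± 0.12 with vehicle (adjusted p = 0.687). The sign of the ACKR3 difference flipped under quantile and cyclic loess normalization and without menthol replicate 1. It also flipped, at a difference of 0.0, without vehicle replicate 3.

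CCL20, the ligand of CCR6 and an attractant of dendritic cells and Th17 cells, read 5.78, 6.23 and 5.89 with menthol and 6.51, 6.66 and 6.61 with vehicle. It fell by 0.63 ± 0.12, or 1.54-fold (adjusted p = 0.00613), and the groups did not overlap, though menthol replicate 2 lay nearer vehicle than to the other menthol arrays. CCR6 was dim, at 4.09 ± 0.15 with menthol and 3.97 ± 0.16 with vehicle, and did not pass (adjusted p = 0.441).

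**Figure D4:**
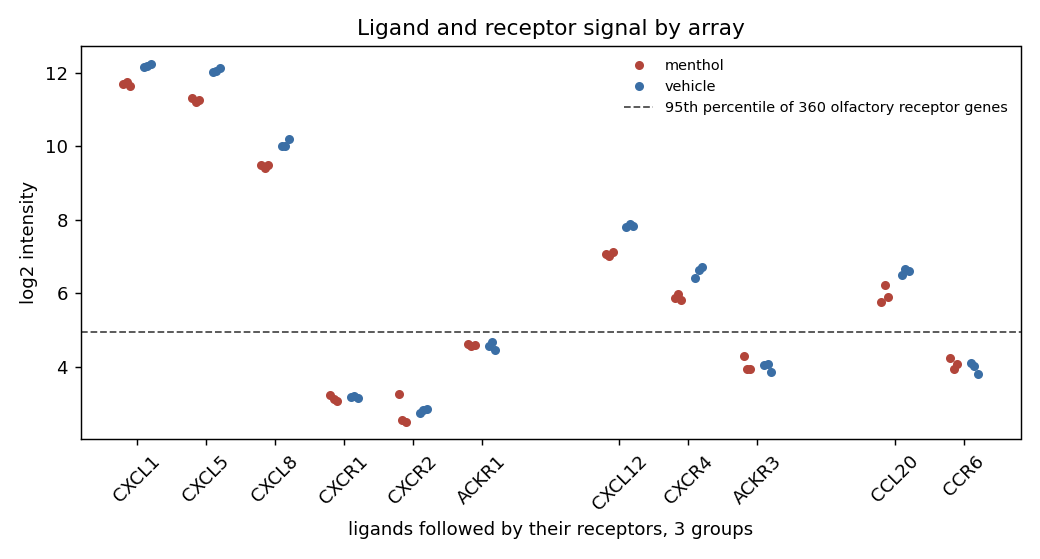
Log2 intensity (y axis, not starting at 0) by array for ligands followed by their receptors in 3 groups, menthol left of vehicle. CXCL1, CXCL5, CXCL8, CXCL12, CXCR4 and CCL20 lie above the dashed line (the 95th percentile of olfactory receptor genes, 4.95) with menthol below vehicle, whereas CXCR1, CXCR2, ACKR1, ACKR3 and CCR6 lie under it with overlapping groups. Brightness is not comparable between genes.

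CXCL10, an interferon-inducible ligand of CXCR3 that attracts T cells, was among the dimmest members. It read 2.75, 2.82 and 2.76 with menthol and 2.41, 2.37 and 2.64 with vehicle, all under the olfactory receptor median. It rose by 0.30 ± 0.08 (adjusted p = 0.0324), and its alternatives gave adjusted p-values between 0.0117 and 0.18. The call ended without menthol replicate 1, 2 or 3 or vehicle replicate 1 or 2, and under quantile and cyclic loess normalization, a trended variance prior, the replicate number as a block and a stricter threshold of 0.01. Of the related ligands, CXCL9 was at 2.93 ± 0.14 with menthol and 2.82 ± 0.13 with vehicle, and CXCL11 at 2.95 ± 0.21 with menthol and 3.07 ± 0.15 with vehicle. Neither passed, and nor did CXCR3, at 5.74 ± 0.14 with menthol and 5.62 ± 0.18 with vehicle (adjusted p = 0.488).

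CCL22, a ligand of CCR4 that attracts regulatory T cells, read 5.54, 5.63 and 5.48 with menthol and 5.32, 5.37 and 5.19 with vehicle. The groups lay apart by little, and CCL22 rose by 0.26 ± 0.07, or 1.20-fold (adjusted p = 0.0351, alternatives between 0.0182 and 0.109). Its call ended without menthol replicate 1 or 2 or vehicle replicate 1 or 3, and under quantile and cyclic loess normalization, the trended prior and the stricter threshold. CCL17, the other ligand of CCR4, was at 6.09, 5.89 and 5.85 with menthol and 5.81, 5.57 and 5.54 with vehicle. Its groups did not overlap either, and at 0.31 ± 0.10 it just missed the threshold (adjusted p = 0.051). CCL17 passed under 4 alternatives, among them without vehicle replicate 1, with adjusted p-values between 0.0201 and 0.149 over all of them. CCR4 did not pass, at 3.94 ± 0.15 with menthol and 3.81 ± 0.07 with vehicle (adjusted p = 0.298).

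Of the 58 genes, 47 did not pass. In these the differences ran from -0.39 to 0.32, and the mean signals from 2.45 to 7.21 with menthol and from 2.36 to 7.30 with vehicle. The brightest was CXCL16, a membrane-bound ligand of CXCR6, at 7.21 ± 0.11 with menthol and 7.30 ± 0.06 with vehicle (adjusted p = 0.385, 95% interval of the difference -0.27 to 0.08). The largest fall among them was that of CCL4, a macrophage inflammatory protein, at 2.45 ± 0.19 with menthol and 2.84 ± 0.19 with vehicle (adjusted p = 0.0514). CCL4 passed as lower under 7 of its 14 alternatives, including quantile normalization and the omission of vehicle replicate 3 (adjusted p between 0.0119 and 0.149). Both of its means lay under the olfactory receptor median of 3.41. The probesets shared by CCL4 and its copies CCL4L1 and CCL4L2 were higher with menthol, by 0.11 and 0.06, and were not tested. Counting every member whose groups did not overlap gave 11 lower, against 21.7% of all genes, and 5 higher, against 23.5%. Beside the genes already named these were CCL26 on the lower side and CCL21 and CCL28 on the higher.

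By class, 18 of 20 CC ligands did not pass, nor did any of the 8 CC receptors, the 5 atypical receptors or the 5 C and CX3C ligands and receptors. CCR2, the receptor of CCL2, had probesets that disagreed: the brighter, used here, was at 3.55 with menthol and 3.54 with vehicle, and the other, not tested, at 3.57 with menthol and 3.01 with vehicle. CCL2, the monocyte attractant MCP-1, was at 4.0 ± 0.14 with menthol and 4.2 ± 0.18 with vehicle (adjusted p = 0.207). XCL1, a C ligand, was the least stable, reading 4.38, 5.02 and 2.61 with menthol and 3.09, 4.50 and 4.06 with vehicle. Its replicates spanned 2.41 with menthol and 1.41 with vehicle, and XCL2 is a near-identical copy. Besides the probesets with 1 symbol, 5 probesets carried several symbols with a family member among them, for CCL3 and CCL4 with their copies, for CCL14 with CCL15, and for CCL27. Their differences ran from -0.02 to 0.13 on the log2 scale and were not tested.

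Genes around the chemokine system moved in both directions. Of 120 measured genes in 4 lists, 19 rose (15.8%, against 14.6% of all genes) and 30 fell (25%, against 14.5% of all genes), with a median of -0.01. The share that rose was thus near that of all genes. Omission of single arrays gave 15 to 18 rises and 22 to 25 falls. Among all genes falls were more frequent in bright ones: 19.3% above the olfactory receptor level used for dim genes. They were 23.6% in genes brighter than the median and 5.46% in dimmer ones. In the lists, in the order given below, 8 of 30, 7 of 31, 8 of 25 and 5 of 34 genes lay no higher than the olfactory receptor level. Whether brightness accounts for the share that fell in any list was not tested. Among genes of receptor signalling and trafficking 5 of 30 rose (16.7%, near the 14.6% of all genes) and 8 fell (26.7%, against 14.5%), with a median of -0.08. GNAI1, a G protein subunit of the class that chemokine receptors use, rose by 0.75 ± 0.08, and the small GTPase RAC1, which drives lamellipodia, by 0.58 ± 0.10. GRK2, the kinase that switches off activated receptors including CXCR4, fell by 0.62 ± 0.06, and RAC2, the blood-cell relative of RAC1, by 0.60 ± 0.06. The number of these genes that rose was 3 without menthol replicate 2 or vehicle replicate 3. It was 2 without menthol replicate 3 and at the threshold of 0.01.

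In the list of cleavage, shedding and capture 4 of 31 rose (12.9%, near the 14.6% of all genes) and 9 fell (29%, against 14.5%), with a median of -0.01. DPP4, the surface peptidase that inactivates CXCL12 and CXCL10 by clipping their first residues, read 7.37, 7.62 and 7.58 with menthol and 8.52, 8.57 and 8.64 with vehicle. It fell by 1.05 ± 0.08, or 2.08-fold (adjusted p = 0.000154). TNFAIP6, or TSG-6, a secreted protein that binds CXCL8 and CXCL12, read 5.17, 5.45 and 5.49 with menthol and 6.79, 6.86 and 6.97 with vehicle. Its fall, to 5.37 with menthol against 6.87 with vehicle, or 2.84-fold (adjusted p = 7.85e-05), exceeded that of every chemokine. The metalloproteases MMP3 and MMP14 rose by 1.22 ± 0.08 and 0.79 ± 0.06. Of the other metalloproteases that passed, MMP1 rose by 0.70, and MMP13 and ADAM8 fell by 0.63 and 0.21. The carboxypeptidases CPM and CPD fell by 0.40 and 0.35. With an array left out 5 to 7 genes of this list fell, the 5 without menthol replicate 3 or vehicle replicate 3. At the threshold of 0.01 the number was also 5.

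Of 25 other attractants and their receptors 5 rose (20%, against 14.6% of all genes) and 3 fell (12%, near the 14.5% of all genes), with a median of 0.13. PPBP had the largest increase of the list. CCRL2, an atypical receptor that binds chemerin, read 5.44, 5.59 and 5.89 with menthol and 4.25, 4.62 and 4.63 with vehicle, and rose by 1.14 ± 0.14, or 2.20-fold (adjusted p = 0.00108). S1PR1, the sphingosine-1-phosphate receptor that guides lymphocyte exit, rose by 0.67 ± 0.12, to 5.07 with menthol against 4.40 with vehicle. Its mean over the 6 arrays lay no higher than the olfactory receptor level of 4.95. The neutrophil growth factor CSF3 fell by 0.41 ± 0.09. With genes dimmer than the median left out 2 genes of this list rose, and 1 fell at the threshold of 0.01.

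Among 34 inducers and regulators of chemokine transcription 5 rose (14.7%, near the 14.6% of all genes) and 10 fell (29.4%, against 14.5%), with a median of -0.07. NFKBIZ, a nuclear I-kappaB protein that acts with NF-kappaB on a subset of its targets, read 7.20, 7.30 and 7.29 with menthol and 8.36, 8.42 and 8.59 with vehicle. It fell by 1.20 ± 0.08, or 2.29-fold (adjusted p = 7.39e-05). IL1A, an inducer of CXCL8 and CXCL1, read 4.39, 4.63 and 4.90 with menthol and 5.71, 6.01 and 6.05 with vehicle, and fell by 1.29 ± 0.14 (adjusted p = 0.00063). The receptor antagonist IL1RN, which blocks it, rose by 1.34 ± 0.08. IL6, another NF-kappaB target, read 9.04, 9.40 and 9.19 with menthol and 7.75, 7.91 and 7.97 with vehicle. It rose by 1.33 ± 0.10 (adjusted p = 0.000161), the opposite direction to the 6 CXC ligands. The remaining genes of the list that fell were TNFRSF1A, IFNGR2, RELA, NFKB1, NFKB2, NFKBIA, IRF3 and FOSL1, by 0.19 to 0.48, and JUN, TRAF6 and MYD88 rose, by 0.27 to 0.50.

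The 9 falls were stable. All 9 genes passed as lower under every alternative that tested them, including the omission of each array, and the 2 not tested when genes dimmer than the median were left out were CXCR4 and CCL20. Over these alternatives the log2 difference of CXCL6 ran from -0.94 to -0.86, that of CXCL12 from -0.80 to -0.75, and that of CCL20, the widest, from -0.76 to -0.53.

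**Figure D5:**
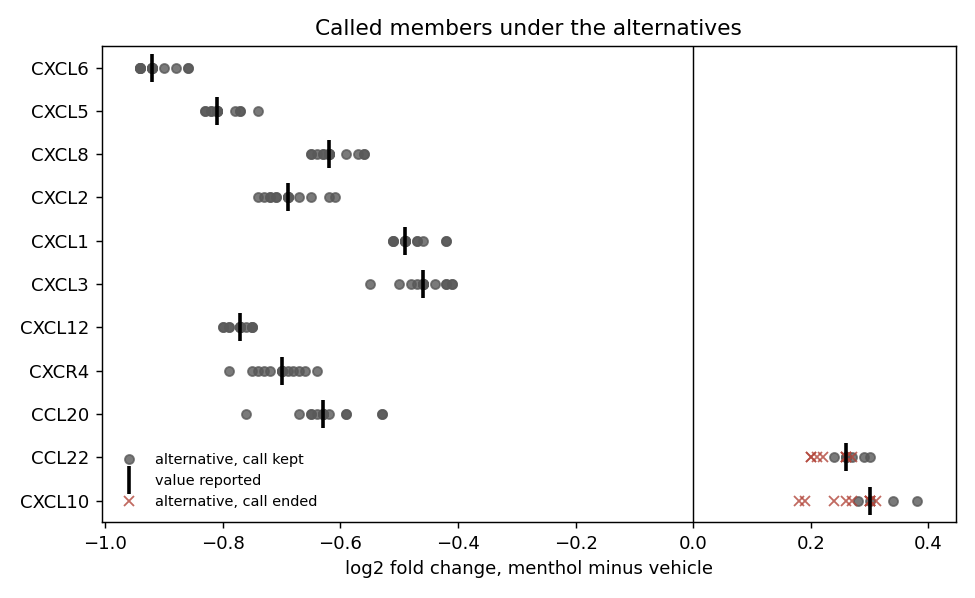
Log2 fold change, menthol minus vehicle (x axis), of the 11 called members under each alternative (points or crosses) and as reported (black bar). The 9 genes that fell kept their call under all alternatives that tested them, while CCL22 and CXCL10 lost theirs under 8 and 10 alternatives.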

How the data were processed

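The authors deposited 1 table of intensity values for 32321 probesets on 6 arrays, and RMA is named per the submitters' processing notes. The values ran from 1.57 to 14835, so they were linear and log2 was taken, although RMA usually gives log2. Array medians lay between 47.4 and 49.1, and 300 ng of RNA was labelled per array, per the labels' protocols. The number of arrays limits the precision, and the labels name no batch. Of the probesets 19158 had 1 gene symbol in the platform annotation, and per gene the probeset with the highest mean was kept.

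The difference between groups was fitted in limma 3.58.1 under R 4.3.3 (lmFit and eBayes, two-sided, Benjamini-Hochberg over 18404 genes). Exact permutation of 3 against 3 arrays cannot go below 0.10. On simulated data of menthol versus vehicle, with 200 of 18404 genes changed, the fit recovered 93.5% of 1.5-fold and 99.5% of 2-fold changes, with 11 and 9 false calls. The simulated noise was normal and independent between genes, and in the data 29.1% of all genes were called. These figures may therefore not carry over to the data. Promoters are RefSeq's (GRCh38.p14); alignment used Biopython 1.88 and figures matplotlib 3.10.9.

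Members and lists were chosen with earlier results of these data known. Every member past the threshold is named, others as its partner, as a near-identical copy or for brightness, and per list up to 4 genes with the largest change past the threshold. CCL2, CCL4, CCL17, XCL1, CXCL16, CXCL9, CXCL11, KRT8, KLK3, PTPRC, PF4, PF4V1 and the further genes named without an SE were chosen after their values were seen.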

Additional observations from a re-analysis of the deposited data

How the results depend on the processing

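Other normalizations (quantile, cyclic loess, equal medians), filters on dim genes, averaged probesets, a trended and robust prior with statmod 1.5.0, weights per array, a replicate block, a stricter threshold of 0.01 and leaving out each array were tried. With genes dimmer than the median left out 7 of the 8 family genes tested fell, and otherwise 9 to 11 of the family fell. The number that rose, 2, was 0 under quantile and cyclic loess normalization, without genes dimmer than the median and at 0.01, 1 with the trended prior (CCL17) and 3 with array weights (ACKR5, CCL22 and CXCL10). With the weaker filter on dim genes, where CXCL10 was not tested, and with the replicate block the 2 that rose were CCL17 and CCL22. With each array left out, 0 to 2 family genes rose and 9 to 11 fell, 15 to 18 pathway genes rose and 22 to 25 fell, and over all genes 1950 to 2402 rose and 1851 to 2472 fell. At 0.01, 1382 of all genes rose and 1459 fell. Some dim genes that had not passed changed sign. ACKR1 was at -0.04 and ACKR3 at -0.03 under both quantile and cyclic loess normalization. With each array left out ACKR1 ran from -0.01 to 0.1, ACKR3 from -0.05 to 0.13, CXCR1 from -0.08 to 0.01, CXCR2 from -0.26 to 0.11 and XCL1 from -0.39 to 0.82. Where fewer genes were tested or the threshold was stricter the construction accounts for the smaller count; otherwise the cause was not tested. Arrays of the same replicate number shared only that number, their deviations correlating at 0.006, -0.007 and 0.091. With the replicate block 10 family genes fell, CCL4 being added, and 2 rose, while 2483 of all genes rose and 2385 fell. Signal limits the dim members, since 38 of the 58 lay at or under the olfactory receptor level of 4.95.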
